A study of Mus musculus with 6 samples.

Results

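Chemokines and their receptors were examined in the epididymal fat depot (epididymal white adipose tissue, eWAT) of mice with cancer-associated cachexia (CAC), the wasting of fat and muscle that tumors can cause. The genes were every row of the count table that is listed as protein-coding and whose symbol begins with Ccl, Ccr, Cxcl, Cxcr, Xcl, Xcr, Cx3cl, Cx3cr or Ackr followed by a number. This rule gave 67 of the 55039 genes listed, 44 of them ligands and 23 receptors, with 61 distinct symbols because 7 rows lie on unplaced scaffolds that hold further copies of Ccl19, Ccl21 and Ccl27a. Male C57BL/6 mice aged 6 to 7 weeks received Lewis lung carcinoma (LLC) cells under the skin of the lower back (CAC, n = 3) or PBS alone (CONT, n = 3), and no transgene or deletion is described for either group. eWAT was taken 28 days later and poly(A) RNA of each mouse gave 1 library. The tumor model rests on 1 cell line, and effects of the tumor and of the wasting that comes with it cannot be told apart here.

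Chemokines are small secreted proteins that guide leukocytes along a gradient, and their receptors are membrane proteins that signal through Gi-type G proteins. Ligands are classed by the spacing of the cysteines near the amino terminus (CC, CXC, XC and CX3C), while atypical receptors (Ackr) bind chemokines without G protein signalling and remove or store them. In adipose tissue, CC ligands of Ccr2 are known for drawing monocytes that become macrophages, and the ligands of Cxcr2 for drawing neutrophils.

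The cysteine spacing that names the classes can be read from the coding sequences of ligands described below. They are shown because these ligands stand for 3 classes and include 3 whose levels did not overlap between the groups. Capitals mark the codons of the class-defining cysteines, TGC or TGT, and codons are counted from 1 at the start codon, so the signal peptide is included. Sequences and exons are those of the GENCODE M21 transcripts (GRCm38).
Ccl8 (CC, codons 32 and 33, exon 2 of 3, chr11:82116044-82116073, plus strand): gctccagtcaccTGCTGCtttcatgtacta
Cxcl2 (CXC, codons 36 and 38, exon 2 of 4, chr5:90904130-90904162, plus strand): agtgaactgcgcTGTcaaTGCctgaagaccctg
Cxcl16 (CXC, codons 35 and 37, exon 2 of 5, chr11:70459115-70459147, minus strand): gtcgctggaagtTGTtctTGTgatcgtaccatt
Cx3cl1 (CX3C, codons 32 and 36, exon 2 of 3, chr8:94778039-94778077, plus strand): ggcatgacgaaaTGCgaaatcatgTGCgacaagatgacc
Cxcl16 and Cx3cl1 are the members whose chemokine domain sits on a membrane stalk, and their coding sequences are the longest of the 4, with 246 and 395 codons against 97 for Ccl8 and 100 for Cxcl2.

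The promoters shown next belong to ligands and receptors whose levels did not overlap between the groups, together with Cxcl3, which lies in the cluster of Cxcl2. Each is the 250 bases before a RefSeq start site (GRCm38.p6), read 5′ to 3′ on the strand of the gene, and capitals mark matches on either strand to the motifs searched.
Cxcl2 (chr5:90903649-90903898, plus strand): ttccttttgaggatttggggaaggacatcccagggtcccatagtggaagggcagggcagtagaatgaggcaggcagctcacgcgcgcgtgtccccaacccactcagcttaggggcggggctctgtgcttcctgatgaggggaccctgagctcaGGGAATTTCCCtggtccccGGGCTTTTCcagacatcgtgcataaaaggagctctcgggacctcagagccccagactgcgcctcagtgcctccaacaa
Cxcl3 (chr5:90785851-90786100, plus strand): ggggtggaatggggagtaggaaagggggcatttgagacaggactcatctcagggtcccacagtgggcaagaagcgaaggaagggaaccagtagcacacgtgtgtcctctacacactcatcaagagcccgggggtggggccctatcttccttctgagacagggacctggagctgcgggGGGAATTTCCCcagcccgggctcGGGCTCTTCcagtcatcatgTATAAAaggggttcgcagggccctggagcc
Ccl8 (chr11:82114935-82115184, plus strand): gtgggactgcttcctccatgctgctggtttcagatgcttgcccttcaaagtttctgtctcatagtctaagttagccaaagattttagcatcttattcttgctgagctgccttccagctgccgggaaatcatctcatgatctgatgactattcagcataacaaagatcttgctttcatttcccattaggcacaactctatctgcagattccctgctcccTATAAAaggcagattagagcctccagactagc
Cxcr2 (chr1:74153744-74153993, plus strand): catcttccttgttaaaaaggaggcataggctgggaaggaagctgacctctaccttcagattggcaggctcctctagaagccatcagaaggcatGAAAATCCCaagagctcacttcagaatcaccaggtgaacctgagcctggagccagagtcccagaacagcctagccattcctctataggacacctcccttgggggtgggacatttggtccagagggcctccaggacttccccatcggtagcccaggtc
Cx3cr1 (chr9:120068297-120068546, minus strand): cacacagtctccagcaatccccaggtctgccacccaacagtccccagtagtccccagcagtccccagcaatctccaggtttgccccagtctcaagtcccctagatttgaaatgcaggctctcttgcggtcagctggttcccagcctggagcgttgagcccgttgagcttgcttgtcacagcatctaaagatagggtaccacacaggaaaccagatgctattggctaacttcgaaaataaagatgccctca
The start site used for Cx3cr1 lies inside the span that the deposited table lists for the gene, and the Cxcl2 and Cxcr2 windows run past the listed gene starts at 90903871 and 74153989.

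A kappaB-type motif (GGGNNNTTC, on either strand) was present in 15 of the 53 promoters matched to 46 of the 61 symbols, against 11.8% of 32851 promoters of the same length. Cxcl1, Cxcl2 and Cxcl3, which lie together on chromosome 5, each held 3 matches, of which a pair overlapped as nearly the same site read on both strands. Of the receptors named above, Cxcr2 held 1 match and Cx3cr1 none. An interferon response motif (GAAANNGAA, in 7.13% of all promoters) was present in 8 members, among them Ccl1, Ccl3, Ccr2, Cxcl9 and Cxcl10. A STAT motif (TTCNNNGAA, 7.02%) was present in Ccl17, Ccr1l1, Ccr6 and Cxcl14, and a PU.1 motif (GAGGAAGT, 2.44%) in Cxcr3. A TATAAA box, present in 12.4% of all promoters, was found in 15 of the 53. Matches are letters in a window and were not tested for binding.

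The libraries held 15713794 to 25926425 counted reads, of which the 67 genes took 0.0455% to 0.114%. Levels are given as CPM, the count scaled to the TMM-adjusted library size, where 1 CPM stood for 11.2 to 26.5 reads. CONT 1 stood apart, with 30.2% of its reads from mitochondrial genes against 3.89% to 5.04% in the others, and results that rest on it are given without it too. CONT 3 held 8803 CPM of epididymis markers such as Adam7, against 205 and 2.76 in CONT 1 and CONT 2 and at most 0.680 in CAC. Adipocyte markers such as Adipoq and Plin1 summed to 14920 to 33651 CPM in CONT and 14358 to 31325 CPM in CAC, so the labelled tissue was present in each library. One of them, Lep, was at 409 to 697 CPM in CONT and 512 CPM in CAC 1, but at 3.996 and 0.415 CPM in CAC 2 and CAC 3. Since the samples are whole tissue, fewer cells of a type and less RNA per cell cannot be told apart.

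Compared per length (FPKM), a few homeostatic and macrophage-type ligands made up most of the chemokine RNA of eWAT. Ccl6, a CC ligand made by macrophages and neutrophils, had the highest mean over the 6 libraries (59.0 FPKM, with 38.4 in CONT and 79.6 in CAC). It was followed by the eotaxin Ccl11 (33.9), the B cell attractant Cxcl13 (28.8), the stromal ligand Cxcl12 (23.9), Ccl8 (23.9) and the macrophage ligand Ccl9 (20.3). Cxcl9 (8.44), a Ccl21a copy on scaffold JH584294.1 (7.77) and Ccl2 (6.49) completed the leading ligands. In CONT, the mean was 49.7 FPKM for Cxcl13 and 40.5 for Ccl8, but Ccl6 was above Cxcl13 in CONT 1 and above Ccl8 in CONT 1 and CONT 3. Of the receptors, Ackr3, which scavenges Cxcl12, had the highest mean (10.7 FPKM), ahead of Cxcr4 (6.44), Ackr1 (5.65) and Ccr2 (5.07).

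The shares of some leading ligands in the ligand RNA differed between the groups, while its sum overlapped. Summed ligand FPKM was 174, 367 and 311 in CONT 1, 2 and 3 and 305, 150 and 216 in CAC 1, 2 and 3, and these overlapped. Ccl6 took 14.6%, 10.9% and 16.0% of the ligand FPKM in CONT and 41.3%, 27.8% and 33.0% in CAC, so that the groups did not overlap. Ccl8 took 7.63% to 18.6% in CONT and 2.28% to 5.09% in CAC, while Cxcl13 took 3.86% to 23.0% and 0.599% to 6.43% and overlapped. Ccl11 (10.6% to 15.3% and 8.37% to 18.8%) and Cxcl12 (5.96% to 10.1% and 6.06% to 13.5%) kept overlapping shares. Shares sum to a fixed total, so a higher share of Ccl6 lowers those of the others.

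The shares of some receptors in the receptor RNA differed between the groups too. Summed receptor FPKM was 30.0 to 44.8 in CONT and 34.5 to 54.4 in CAC. Cxcr2 made up 0.158% to 1.38% of it in CONT and 6.75% to 12.1% in CAC, and Cx3cr1 made up 4.65% to 5.79% and 0.355% to 0.886%. Among others without overlap, Ccr1 was higher in CAC (3.49% to 7.46% and 7.81% to 9.74%). Cxcr3 (2.88% to 3.21% and 1.01% to 2.09%), Ackr4 (1.48% to 1.80% and 0.326% to 1.36%), Cxcr5 and Xcr1 were lower. Ackr3 (23.1% to 29.0% and 23.3% to 31.1%) and Ccr2 (10.6% to 15.7% and 9.19% to 13.3%) kept overlapping shares.

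**Figure D1:**
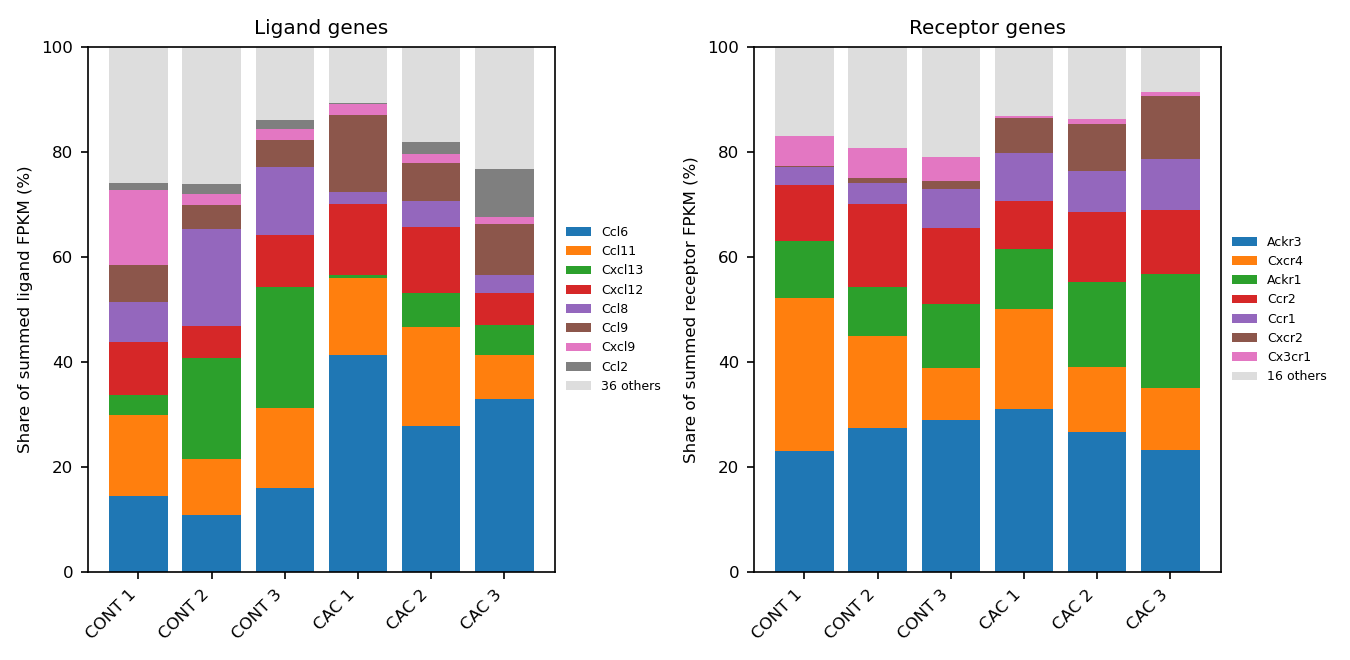
Share of the summed FPKM of 44 ligand genes (left) and 23 receptor genes (right) taken by 8 leading ligands and 7 leading receptors, in percent, with the others in grey, for each library. The Ccl6 block covers 27.8% to 41.3% of the ligand bar in the 3 CAC libraries and 10.9% to 16.0% in the 3 CONT libraries, and the Cxcr2 block is visible mainly in CAC.

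Of the 67 genes, 42 passed edgeR's filter on low counts and were tested among 17296 genes. None had an adjusted p under 0.05 in edgeR's quasi-likelihood test with Benjamini-Hochberg adjustment, and the adjusted p ranged from 0.180 to 0.990. The background was the same, with 0 of all genes tested (0%) called, while 2294 genes had an unadjusted p under 0.05. The p-values measure the spread between 3 mice a group. At an unadjusted p under 0.05, 2 members were higher in CAC (Cxcl2 and Cxcr2) against 6.31% of all genes tested, and 8 were lower (among them Ccl8, Ccl28, Cx3cr1, Cxcl9, Cxcl13, Cxcl16 and Xcr1) against 6.95%. Without CONT 1, the counts were 1 of 44 higher (Cxcr2, against 7.30% of all genes tested) and 7 lower (the same genes without Cxcl9, against 8.28%).

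DESeq2 called Cxcr2 higher in CAC at an adjusted p under 0.05, 1 of 41 members against 3.25% of 17033 genes. It called Ccl8, Ccl28, Cx3cr1 and Cxcl16 lower, 4 of 41 against 2.44%. With a library left out in turn, DESeq2 called Cxcr2, Ccl8, Cx3cr1 and Cxcl16 in 6 of 6 fits and Ccl28 in 1. voom with sample quality weights called Cxcr2 higher, 1 of 42 against 2.78% of all genes, and 4 of 42 lower against 2.73%, among them Ccl8, Cx3cr1 and Cxcl16. Ccl8, Cx3cr1 and Cxcl16 had an unadjusted p under 0.05 in every fit run here, and Cxcr2 in every fit that kept it after filtering.

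Separation of the libraries was counted next. All 3 CAC libraries lay above the highest CONT library in 2 of the 42 tested members (Cxcl2 and Cxcr2), against 11.8% of all genes tested. All 3 lay below the lowest CONT library in 11 members (among them Ccl8, Ccl22, Ccr10, Cx3cr1, Cxcl9, Cxcl10, Cxcl16, Cxcr3, Cxcr5 and Xcr1), which is 26.2% against 10.7% of all genes tested. The median log2 fold change (CAC minus CONT) was -0.53 over the 42 members and -0.06 over all genes tested, with 13 members above 0 and 29 below.

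**Figure D2:**
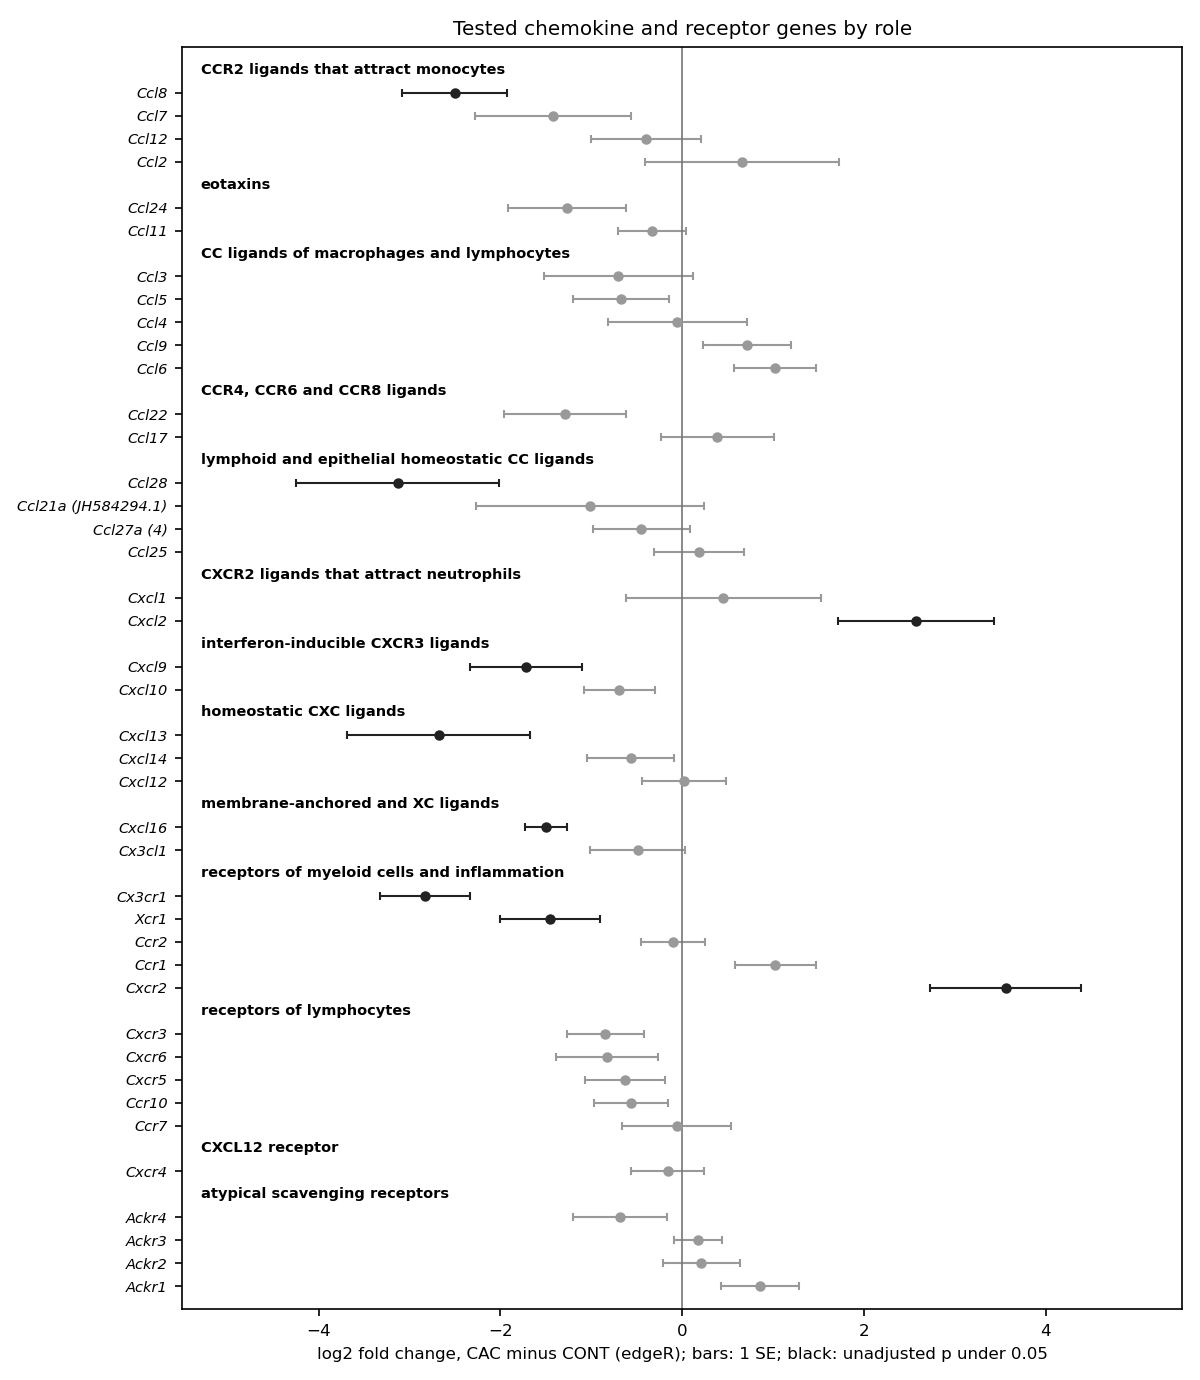
log2 fold change (CAC minus CONT, edgeR, counts) with bars of 1 SE for 41 of the 42 tested members, grouped by role, with the chromosome or scaffold in brackets where a symbol has several copies. Members with an unadjusted p under 0.05 are black and lie between -3.13 (Ccl28) and 3.56 (Cxcr2).

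The receptors of myeloid cells showed the widest range. Cxcr2, the receptor that draws neutrophils toward ligands of the Cxcl1 to Cxcl5 group (chr1:74153989-74161246), was at 0.178, 1.71 and 1.94 CPM in CONT 1, 2 and 3 and at 10.02, 11.7 and 24.6 CPM in CAC 1, 2 and 3. The lowest CAC library was thus well above the highest CONT library. The log2 fold change was 3.56 ± 0.83 (SE), or 11.8-fold, with an adjusted p of 0.236 in edgeR's quasi-likelihood test and 2.10e-04 in DESeq2 (1.45e-06 to 0.684 over all fits). Without CONT 1, the log2 fold change was 3.09, and leaving out each library in turn gave 3.06 to 3.995. Its paralog Cxcr1 had at most 7 reads in a library and was not tested.

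Markers of neutrophils moved with Cxcr2. All 8 markers had a log2 fold change above 0, 5 of them with an unadjusted p under 0.05 (Ly6g, Mmp8, Retnlg, S100a8 and S100a9), and their summed level was 5.44 to 70.6 CPM in CONT and 166 to 1279 CPM in CAC (exact permutation test, two-sided, p = 0.1, the smallest that 3 against 3 allows). CAC 3 was highest in both the marker sum and Cxcr2, and CONT 1 was lowest in both. None of the 8 was at 0 in the whole series, although Ly6g, Mmp8 and Ngp had no read in CONT 1. Erythroid markers such as Hba-a1 and Alas2 summed to 5678, 261 and 392 CPM in CONT 1, 2 and 3 and 1853 to 2439 CPM in CAC (p = 1.0 in the same exact permutation test), so that CAC lay above CONT 2 and CONT 3, and Alas2 did not overlap. The part of these cells in the Cxcr2 difference was not tested.

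Cx3cr1 went the other way. This receptor of Cx3cl1, found on patrolling monocytes and many tissue macrophages (chr9:119901616-120069879), was at 9.63, 14.5 and 9.67 CPM in CONT 1, 2 and 3 and at 0.780, 1.70 and 2.27 CPM in CAC 1, 2 and 3. The highest CAC library was well below the lowest CONT library. The log2 fold change was -2.83 ± 0.49 (SE), 7.11-fold lower, with an adjusted p of 0.215 in edgeR's quasi-likelihood test and 3.19e-06 in DESeq2 (4.68e-08 to 0.684 over all fits). The listed span of Cx3cr1 holds several other genes, but its exons share bases only with Gm33858, which had 11 reads.

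Ccr2, the receptor of classical monocytes, did not follow Cx3cr1. It was at 26.5, 59.4 and 45.5 CPM in CONT 1, 2 and 3 and at 30.3, 38.1 and 54.4 CPM in CAC 1, 2 and 3, with a log2 fold change of -0.10 ± 0.35 (SE), which was 0.19 without CONT 2. The reads of Cx3cr1 per read of Ccr2, a ratio within each library that no scaling changes, were 0.213 to 0.364 in CONT and 0.0258 to 0.0444 in CAC, without overlap. The 12 macrophage markers summed to 880, 2357 and 2364 CPM in CONT 1, 2 and 3. In CAC they summed to 1085 to 1940 CPM (exact permutation test, two-sided, p = 0.4). The groups overlapped through CONT 1 alone, and CONT 2 and CONT 3 lay above every CAC library. Of the 12 markers, 10 had a log2 fold change below 0 and 2 above (median -0.54, against -0.06 over all genes tested). At an unadjusted p under 0.05 in edgeR's test, Mertk was higher (log2 fold change 1.37) and C1qa lower (-1.01). The part of these cells in the Cx3cr1 difference was not tested.

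Ccr1, a receptor of Ccl3 and Ccl5 on monocytes and macrophages, was at 3.66, 6.35 and 9.76 CPM in CONT and at 12.5, 9.40 and 18.4 CPM in CAC. The groups overlapped by CAC 2 alone, and the log2 fold change was 1.02 ± 0.45 (SE) with an unadjusted p of 0.0584 in edgeR's test.

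Xcr1, the receptor of cross-presenting dendritic cells, was at 0.981, 2.23 and 1.72 CPM in CONT and at 0.657, 0.807 and 0.340 CPM in CAC, from 9 to 51 reads a library. The groups did not overlap, and the log2 fold change was -1.45 ± 0.55 (SE). Dendritic cell markers other than Xcr1 and Ccr7 summed to 361, 538 and 488 CPM in CONT 1, 2 and 3 and 176 to 430 CPM in CAC. The groups overlapped through CONT 1 alone. The sums were mostly H2-Ab1, at 308 to 503 CPM in CONT and 146 to 375 CPM in CAC. All 5 markers had a log2 fold change below 0, with 0 of 5 at an unadjusted p under 0.05. They ran from -0.85 (H2-Ab1) to -0.0017 (Flt3), and Clec9a was at -0.10. Ccr3, the eotaxin receptor of eosinophils, had 3, 8 and 22 reads in CONT and 6, 6 and 5 in CAC and was not tested, and Ccr1l1 had 7 reads in all.

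**Figure D3:**
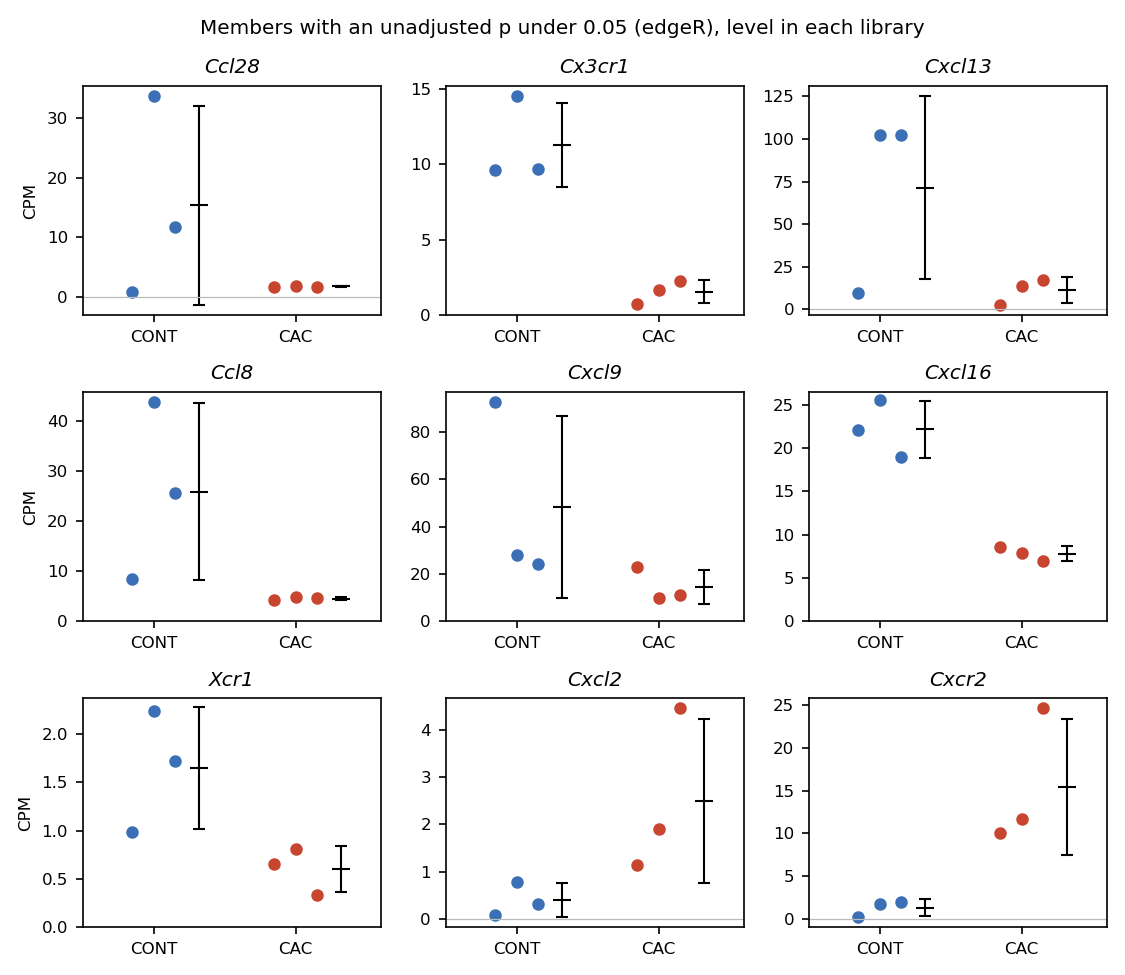
Level in CPM in each library of 9 members with an unadjusted p under 0.05 in edgeR's test, with blue points for CONT 1 to 3, red points for CAC 1 to 3 (left to right) and the mean with 1 SD in black. The groups do not overlap in 7 of the 9, and overlap in Ccl28 and Cxcl13 because CONT 1 is low.

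The receptors of lymphocytes were few in reads and leaned lower. Of 9, 5 were tested, all with a log2 fold change below 0 (-0.85 to -0.06) and none with an unadjusted p under 0.05, although Ccr7 turned to 0.64 without CONT 2. Cxcr3, the receptor of Cxcl9 and Cxcl10 on activated T cells, was at 2.05, 2.80 and 2.31 CPM in CONT and at 1.77, 1.049 and 1.17 CPM in CAC, without overlap (log2 fold change -0.85 ± 0.43 SE). Cxcr5, the Cxcl13 receptor of B cells (-0.63), and Ccr10, the Ccl28 receptor (-0.57), did not overlap either, from 10 to 26 and 19 to 52 reads a library. Cxcr5 shares 3.30% of its exon bases with Bcl9l on the other strand, which had 13817 reads against 113 for Cxcr5, and the library kit did not mark strand. Cxcr6 (-0.83) and Ccr7 (-0.06) overlapped, and Ccr4, Ccr6, Ccr8 and Ccr9 had at most 13 reads in a library.

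T cell markers summed to 9.81 to 17.4 CPM in CONT and 8.27 to 10.3 CPM in CAC. B cell markers summed to 14.2 to 39.6 CPM in CONT and 5.78 to 12.3 CPM in CAC, without overlap (exact permutation test, two-sided, p = 0.1), and 1 of 7, Cd79b, was lower at an unadjusted p under 0.05. Of the 39.6 CPM in CONT 1, Pax5 made up 19.6, and without that library the CONT sums were 14.2 and 18.1 CPM, still above CAC. Natural killer and innate lymphoid markers summed to 11.2 to 84.7 and 12.5 to 18.2 CPM. The T cell and natural killer sums overlapped (p = 0.2 and 0.4 in the same exact permutation test), and the highest natural killer sum, in CONT 3, was mostly Klrb1c (68.3 CPM). The part of these cells in the receptor values was not tested.

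The ligands grouped by role with Ccr2 were not of one kind. Which receptor Ccl8 acts on in the mouse was not tested here. Ccl8 (chr11:82115185-82116799) was at 8.38, 43.7 and 25.5 CPM in CONT 1, 2 and 3 and at 4.31, 4.80 and 4.57 CPM in CAC 1, 2 and 3. The CAC libraries had an SD of 0.246 CPM, whereas CONT spread widely, with CONT 1 lowest. The log2 fold change was -2.50 ± 0.58 (SE), 5.67-fold lower, with an adjusted p of 0.231 in edgeR's quasi-likelihood test and 0.00145 in DESeq2 (8.49e-16 to 0.684 over all fits), and it was -2.90 without CONT 1 and -1.89 without CONT 2. Ccl7, a Ccr2 ligand, was at 3.30, 12.4 and 6.87 CPM in CONT and at 0.698, 1.78 and 5.93 CPM in CAC. It overlapped through CAC 3 (-1.42 ± 0.86 SE, and -2.59 without CAC 3, when DESeq2 called it).

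Ccl2, the main monocyte attractant, spread more within CAC than between the groups. It was at 3.21, 10.1 and 7.87 CPM in CONT and at 1.11, 4.80 and 27.6 CPM in CAC 1, 2 and 3, and the log2 fold change of 0.66 ± 1.07 (SE) turned to -1.25 without CAC 3. Ccl12, its mouse paralog, was at 2.32 to 6.44 and 1.82 to 4.80 CPM (-0.40, and 0.20 without CONT 2). Ccl8 had 2.61 to 4.32 reads per read of Ccl2 in CONT, and 3.89, 1.00 and 0.165 in CAC 1, 2 and 3, so that CAC 2 and CAC 3 lay below the CONT libraries and CAC 1 among them. CAC 3 was also the library with the highest Cxcl1, Cxcl2, Cxcl3 and neutrophil marker levels.

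Among the ligands of Cxcr2, which attract neutrophils, Cxcl2 was higher in every CAC library. Cxcl2 (chr5:90903871-90905938) was at 0.0892, 0.788 and 0.316 CPM in CONT and at 1.15, 1.90 and 4.46 CPM in CAC, from 1 to 118 reads a library. The log2 fold change was 2.57 ± 0.86 (SE) with an unadjusted p of 0.0216 in edgeR's test and an adjusted p of 0.305 there and 0.0725 in DESeq2 (0.0391 to 0.687 over all fits), and 2.19 (unadjusted p = 0.0503) without CONT 1. It was 1.87 without CAC 3 and 3.50 without CONT 2. Cxcl1 was at 0.713, 2.58 and 3.30 CPM in CONT and at 1.03, 0.525 and 7.55 CPM in CAC, high in CAC 3 alone (log2 fold change 0.45 ± 1.07 SE, and -1.50 without CAC 3). Cxcl2 thus separated the groups where Cxcl1, 12.6 kb away, did not.

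Cxcl3, which lies in the same cluster and shares the kappaB-type matches printed above, had no read in any CONT library and 0, 15 and 63 reads in CAC 1, 2 and 3. With a floor of 3 counts over the CONT group (0.0534 CPM), its CAC level of 1.03 CPM is at least 19.3-fold higher, and at least 5.72-fold higher without CAC 3. edgeR's filter on low counts left it out. Without that filter it had an unadjusted p under 0.05 in edgeR's test, as in DESeq2, which called it at an adjusted p under 0.05 in 1 of 6 fits with a library left out (without CAC 1). Cxcl5 (0 to 7 reads in CONT and 2 to 18 in CAC) and Cxcl15 (0 to 3 and 0 to 19) were also too low.

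The membrane-anchored ligands differed from each other. Cxcl16, the ligand of Cxcr6 and a scavenger receptor for oxidised lipoprotein (chr11:70453983-70459984), was at 22.0, 25.5 and 18.9 CPM in CONT and at 8.62, 7.87 and 6.95 CPM in CAC. No other member had so small a spread for its difference, and its unadjusted p of 0.000417 ranked 40 among all genes tested. The log2 fold change was -1.50 ± 0.23 (SE), 2.84-fold lower, with an adjusted p of 0.180 in edgeR's quasi-likelihood test and 5.96e-07 in DESeq2 (1.97e-07 to 0.684 over all fits), and leaving out each library in turn gave -1.59 to -1.39. Cxcl16 shares 18.3% of its exon bases with Zmynd15 on the other strand, which had 1275 reads against 1838 for Cxcl16 and a log2 fold change of -0.43.

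Cx3cl1, the membrane-bound ligand of Cx3cr1, overlapped between the groups while its receptor did not. It was at 8.56, 19.97 and 17.0 CPM in CONT and at 5.05, 10.1 and 17.4 CPM in CAC (log2 fold change -0.49 ± 0.52 SE). The receptor Cxcr6 of Cxcl16 was at 1.69, 2.72 and 2.40 CPM in CONT and at 0.944, 2.18 and 0.717 CPM in CAC. Xcl1, the ligand of Xcr1, had 3 to 14 reads a library and was not tested.

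Both interferon-inducible ligands of Cxcr3 that are members had a log2 fold change below 0. Cxcl9 was at 92.5, 28.2 and 24.0 CPM in CONT and at 22.8, 9.73 and 11.3 CPM in CAC, with CONT 1 far above the other CONT libraries. Its log2 fold change of -1.72 ± 0.62 (SE) was -0.82 (unadjusted p = 0.111 in edgeR's test) without CONT 1. Cxcl10 was at 3.92, 5.34 and 3.21 CPM in CONT and at 2.26, 2.62 and 2.83 CPM in CAC, without overlap (-0.69 ± 0.39 SE), and 5.91% of its exon bases are shared with Art3 on the other strand, which had 30000 reads. Cxcl11 is listed as a polymorphic pseudogene and is not a member.

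The homeostatic CXC ligands differed in their log2 fold changes. Cxcl13, which organises B cells in lymphoid clusters (chr5:95956951-95961068), was at 9.54, 102 and 102 CPM in CONT and at 2.55, 13.6 and 17.3 CPM in CAC. The groups overlapped because CONT 1 was as low as the CAC libraries, and the log2 fold change was -2.68 ± 1.01 (SE). The adjusted p was 0.344 in edgeR's quasi-likelihood test and 0.0553 in DESeq2 (0.00115 to 0.710 over all fits). DESeq2 called Cxcl13 without CONT 1 and with edgeR's filter. The log2 fold change was -3.19 without CONT 1 and -2.14 (unadjusted p = 0.0997 in edgeR's test) without CAC 1. The unadjusted p in edgeR's test was under 0.05 in 2 of 6 fits with a library left out. Cxcl12, which retains cells through Cxcr4, was at 177, 224 and 317 CPM in CONT and at 409, 189 and 131 CPM in CAC (0.02 ± 0.46 SE), with the sign depending on the fit. Cxcl14 was at 6.06 to 12.7 and 3.25 to 8.72 CPM (-0.57).

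Ccl28, a mucosal ligand of Ccr10 and Ccr3 (chr13:119623819-119654359), was at 0.803, 33.7 and 11.7 CPM in CONT and at 1.68, 1.86 and 1.74 CPM in CAC. The CONT libraries were uneven, and CONT 1 was below all CAC libraries. The log2 fold change was -3.13 ± 1.12 (SE), with an adjusted p of 0.330 in edgeR's quasi-likelihood test and 0.0395 in DESeq2 (7.20e-09 to 0.711 over all fits), and it was -3.66 (unadjusted p = 0.000710 in edgeR's test) without CONT 1 and -1.83 (unadjusted p = 0.117) without CONT 2. Ccl28 therefore had the lowest log2 fold change of the members and one of the least even control groups.

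The other lymphoid and epithelial CC ligands could not be told apart between the groups. Ccl25 was at 3.83 to 8.72 CPM in CONT and 4.002 to 9.86 CPM in CAC, and the chromosome 4 copy of Ccl27a at 6.24 to 15.1 and 4.64 to 14.4 CPM. The Ccl21a copy on scaffold JH584294.1 was at 0.535, 14.1 and 0.904 CPM in CONT and at 3.04, 0.888 and 3.81 CPM in CAC, and its log2 fold change of -1.01 ± 1.25 (SE) became 1.82 without CONT 2. Copies of Ccl19, Ccl21a, Ccl21b, Ccl21c and Ccl27a are nearly identical, so reads may be split or lost among them and their counts are uncertain. The remaining copies and Ccl27b had at most 25 reads in a library.

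CC ligands of macrophages and lymphocytes leaned both ways. Ccl6 was at 56.2, 89.96 and 111 CPM in CONT and at 274, 92.2 and 157 CPM in CAC, a log2 fold change of 1.02 ± 0.45 (SE) with an unadjusted p of 0.0590 in edgeR's test, and 0.59 without CAC 1. Ccl9, its neighbour on chromosome 11, was at 46.5, 64.1 and 61.8 CPM in CONT and at 164, 40.6 and 78.3 CPM in CAC (0.72 ± 0.49 SE, and 0.10 without CAC 1). Both were highest in CAC 1, the library with the lowest Ccl2, Cxcl13 and Cx3cr1 and the CAC library whose Lep was within the CONT range. Relative to Cxcl12, Ccl6 had 0.318 to 0.402 reads per read in CONT and 0.487 to 1.20 in CAC, without overlap. Ccl5 (-0.67 ± 0.53 SE), Ccl3 (-0.70, and -2.04 without CAC 3) and Ccl4 (-0.05), which are made by T cells and activated macrophages, overlapped, from 51 to 190, 4 to 31 and 3 to 22 reads a library.

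The eotaxins, which attract eosinophils through Ccr3, were led by Ccl11 at 35.5, 52.6 and 63.6 CPM in CONT and 58.9, 37.6 and 24.0 CPM in CAC (-0.33 ± 0.37 SE). Ccl24 was at 14.8, 4.69 and 6.87 CPM in CONT and 6.28, 2.95 and 1.66 CPM in CAC (-1.27 ± 0.65 SE, -0.66 without CONT 1, and -1.90 with an unadjusted p under 0.05 without CAC 1), and Ccl26 had 1 read in all. Among the ligands of Ccr4, Ccl22 was at 1.07, 2.72 and 1.04 CPM in CONT and 0.821, 0.888 and 0.264 CPM in CAC, without overlap (-1.29 ± 0.67 SE, and -0.67 without CONT 2). Ccl17, the other Ccr4 ligand, was at 0.271 to 0.803 and 0.370 to 0.944 CPM. Ccl1, a Ccr8 ligand, had 1 to 3 reads in each CONT library and 0 in CAC, and Ccl20 had 0 reads in the series.

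The atypical receptors and Cxcr4 were not separated. Ackr3 was at 28.5, 51.4 and 44.9 CPM in CONT and 50.7, 37.8 and 52.1 CPM in CAC (0.17 ± 0.27 SE, with the sign changing without CONT 1). Ackr1, the receptor that carries chemokines across venules, was at 5.62, 7.36 and 7.91 CPM in CONT and 7.80, 9.65 and 20.4 CPM in CAC (0.86 ± 0.43 SE, and 0.33 without CAC 3), and it shares 25.7% of its exon bases with Cadm3. Ackr2 was at 2.23 to 4.16 and 2.70 to 4.19 CPM, and Ackr4 at 2.94 to 4.51 and 1.17 to 3.57 CPM, with 8.90% of its exon bases shared with Acad11. Cxcr4 was at 8.18 to 19.4 CPM in CONT and 9.61 to 16.8 CPM in CAC (-0.16 ± 0.40 SE, and 0.08 without CONT 1).

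**Figure D4:**
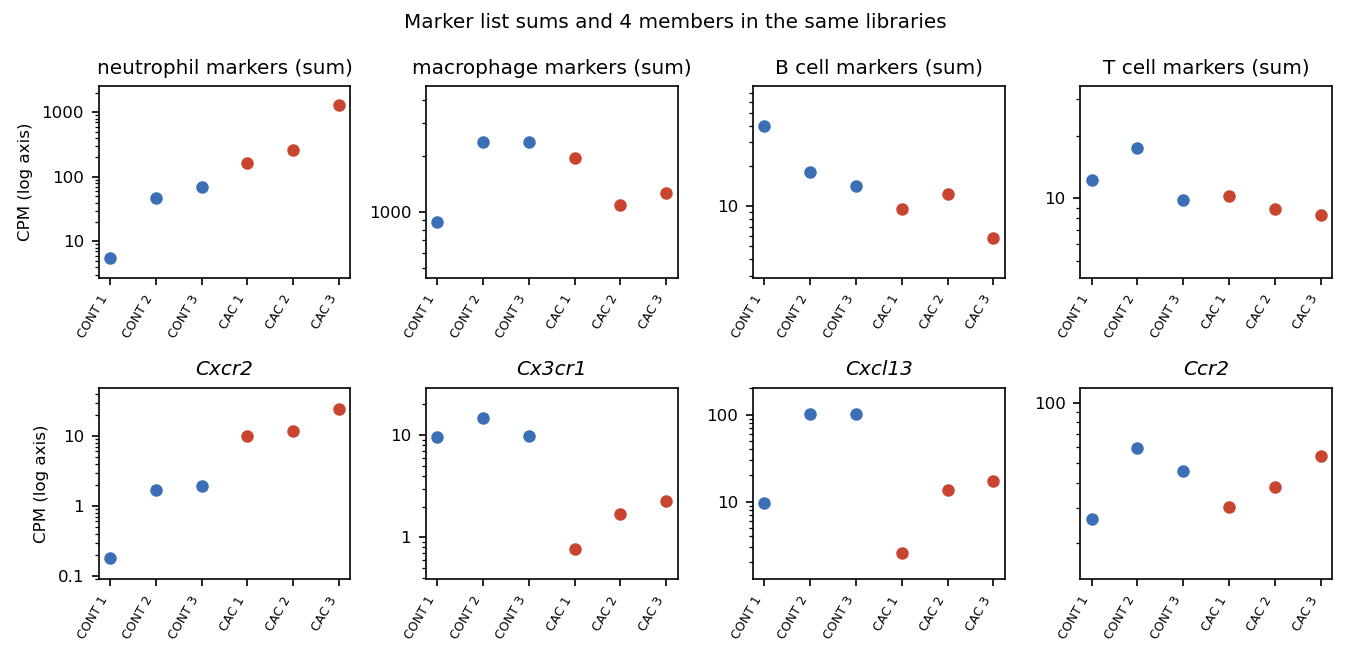
Summed CPM of neutrophil, macrophage, B cell and T cell marker lists (top) and CPM of Cxcr2, Cx3cr1, Cxcl13 and Ccr2 (bottom) in each library, on log axes. Cxcr2 and the neutrophil sum are both lowest in CONT 1 and highest in CAC 3. The macrophage sums overlap between the groups through CONT 1 alone.

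The log2 fold changes of members of one genomic cluster were not all of one sign, but some lay within 1 SE of 0. In the 270 kb cluster on chromosome 11 from Ccl2 to Ccl1, 5 of 6 genes were tested. Their log2 fold changes ran from -2.50 ± 0.58 (SE, Ccl8) to 0.66 ± 1.07 (SE, Ccl2), with Ccl7, Ccl11 and Ccl12 also below 0. In the neighbouring 139 kb cluster, Ccl5 (-0.67 ± 0.53 SE) and Ccl3 (-0.70 ± 0.82 SE) were below 0. Ccl9 (0.72 ± 0.49 SE) and Ccl6 (1.02 ± 0.45 SE) were above it. In the receptor cluster on chromosome 9, Ccr1 was at 1.02 ± 0.45 (SE), Ccr2 at -0.10 ± 0.35 (SE) and Xcr1 at -1.45 ± 0.55 (SE). The signs of Ccl2 and Ccr2 changed when 1 library was left out. Ccl8 reads per read of Ccl11, which lies in the same cluster, were 0.236 to 0.832 in CONT and 0.0732 to 0.191 in CAC, without overlap.

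Genes that act with chemokines and receptors were mixed in direction. Of all 17296 genes tested, 7943 had a log2 fold change above 0 and 9353 below. At an unadjusted p under 0.05, 6.31% of them were higher in CAC and 6.95% lower. Of 10 tested chemokines and receptors with other names, 2 had a log2 fold change above 0 and 8 below (median -0.40). At an unadjusted p under 0.05 in edgeR's test, Gpr182, an atypical receptor of lymphatic and sinusoidal endothelium, was higher (0.88), and Pf4, the platelet chemokine (-0.94), and Cmtm3 (-0.55) were lower. Of 29 genes that signal below the receptors, 8 had a log2 fold change above 0 and 21 below (median -0.28). At that p, 2 were higher, Rgs2 (2.25) and Rgs16 (1.58), which shorten G protein signals. Only Arrb2 (-0.60), which uncouples receptors, was lower at that p. Rgs2 was at 20.7 to 37.9 CPM in CONT and 84.0 to 234 CPM in CAC.

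Of 13 proteases and matrix genes that cut or hold chemokines, 8 had a log2 fold change above 0 and 5 below (median 0.16). At an unadjusted p under 0.05, 2 were higher, the proteoglycan Sdc4 (0.75) and the chemokine-binding Tnfaip6 (1.13), and 0 were lower. Over all genes tested, these shares were 6.31% and 6.95%. Of 12 tested genes listed as inducers of chemokine genes, 7 had a log2 fold change above 0 and 5 below (median 0.10). The list also holds the NF-kappaB inhibitor Nfkbia, so its counts do not measure induction. At that p, the interferon gamma receptor chain Ifngr1 (1.03) and Nfkbia (1.10) were higher and 0 were lower. The groups did not overlap in 3 genes higher in CAC (Ifngr1, Nfkbia and Il1b) and 1 lower (Irf1), against 11.8% and 10.7% of all genes tested. Ifngr1 was at 143 to 185 CPM in CONT and 295 to 406 CPM in CAC. Ifng itself had 10 reads in all and was not tested. Irf1 was at 52.7 to 81.1 CPM in CONT and 46.7 to 51.0 CPM in CAC. The log2 fold changes of Cxcl9 and Cxcl10, which interferon gamma induces, were -1.72 (-0.82 without CONT 1) and -0.69 (unadjusted p = 0.121 in edgeR's test). How these values relate was not tested. No gene of these lists had an adjusted p under 0.05 in edgeR's quasi-likelihood test, as for all genes tested.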

How the data were processed

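RNA of eWAT from 3 CAC and 3 CONT mice was analysed, grouped by the deposited labels. Per the labels, reads were aligned with HISAT2 2.0.5 and counted with featureCounts 1.5.0-p3 (Ensembl release 94, GRCm38). The authors deposited raw whole-number counts per gene, and FPKM values, which divide counts by gene length and library total. The kit did not mark strand.

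Counts were tested in R 4.3.3 with edgeR 4.0.16 (TMM, filterByExpr, robust quasi-likelihood, group as the only term) over all genes, with Benjamini-Hochberg adjustment at 0.05. The common dispersion was 0.265. Alternatives were upper-quartile and RLE normalization, no filter, a minimum of 10 counts in each library, a replicate block, leaving out single libraries, DESeq2 1.42.0, limma 3.58.1 with voom, limma on log2(FPKM + 1) or log2(FPKM + 0.1) (kept: an FPKM of 0.5 or more in 3 libraries), whose fold changes understate those of low genes, and removal of mitochondrial genes. DESeq2 with a library left out or with edgeR's filter was added after seeing the data. Scripts were tested on simulated counts.

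Members, role, pathway and marker lists were chosen with earlier results of these data known. Named are tested members with an unadjusted p under 0.05 or separated libraries, the 10 with the highest mean FPKM, those called by DESeq2, the others by role, and pathway genes with an unadjusted p under 0.05. Cxcl3 and the ratios between members were chosen after their values were seen. Of 7 ratios, 4 did not overlap between the groups (exact permutation test, two-sided, p = 0.1 each, the smallest possible), and the others had p = 0.3, 0.3 and 0.4. Ratios with the member not reported here were left out. RefSeq promoters were matched by symbol, for 31 of the 42 tested members. Cxcl16 had no entry. 1 tested member is counted in the totals but not reported or drawn here.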

Additional observations from a re-analysis of the deposited data

How the results depend on the processing

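By edgeR's quasi-likelihood test, 0 members had an adjusted p under 0.05 under RLE, upper-quartile normalization, both filters, the replicate block, each library left out and without mitochondrial genes, and 0 by limma on either FPKM scale. DESeq2 called 5 (5.69% of all genes tested), voom with quality weights 5 (5.51%), DESeq2 with edgeR's filter 6 (5.80%), and DESeq2 with a library left out 4 to 7 (3.28% to 11.2%). Members higher at an unadjusted p under 0.05, 2 in the main test, were 5 without a filter (4.11% of all genes tested), 0 with at least 10 counts in every library (6.95%; Cxcr2 and Cxcl2 were not kept), 5 by DESeq2 (4.92%), 4 by DESeq2 with edgeR's filter (8.09%), 4 without mitochondrial genes (7.33%), 1 to 4 with a library left out (3.55% to 7.30%) and 1 to 5 by DESeq2 with a library left out (3.54% to 7.58%). Those lower, 8 in the main test, were 14 of 42 by voom (15.9% of all genes tested, against 6.95% in the main test), 4 on either FPKM scale (6.30% and 6.28%), and 3 to 7 with a library left out (3.69% to 8.28%). The replicate numbers did not pair the mice (correlations of same-numbered deviations 0.31, -0.15 and -0.22), and with the replicate block 3 members were higher (5.23% of all genes tested) and 6 lower (6.29%).

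Of 490 alternative values of 22 members, 420 kept direction and side of the threshold, 45 crossed it and 25 changed direction. Ccl9 became -0.082 by voom. Ccl2 became -0.31 with the replicate block, -0.63 by voom, and -0.024 and -0.21 on the FPKM scales, and leaving out a library gave -1.25 (without CAC 3, and -1.21 by DESeq2) to 1.26. Ackr3 became -0.16 by voom, and -0.024 (without CONT 1) to 0.35 with a library left out. Cxcl12 became -0.0037 with upper-quartile normalization, -0.11 with the replicate block, -0.38 by voom, and -0.072 and -0.080 on the FPKM scales, and -0.53 to 0.33 with a library left out (below 0 without CONT 1, CONT 2 or CAC 1, and by DESeq2 -0.55 to 0.36, with -0.0062 without CONT 2). The Ccl21a copy became 0.67 with the replicate block, 0.019 and 0.19 on the FPKM scales, and -1.51 to 1.82 (without CONT 2, and 1.84 by DESeq2) with a library left out. Cxcl9 (-0.82 without CONT 1) and Ccl28 (-1.83 without CONT 2) also moved with 1 control library. Leaving out 1 library changed the sign of 11 of the 42 tested members (Ccl2, Ccl4, Ccl12, Ccl21a, Ccl25, Ccr2, Ccr7, Cxcl1, Cxcl12, Cxcr4 and Ackr3). The cause was not tested. Members under about 10 reads a library were mostly left out by edgeR's filter, and their values rest on few reads.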
